A study of Homo sapiens with 6 samples.

Results

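GAS5 and 9 genes of the SNHG series (SNHG1, SNHG3, SNHG5, SNHG6, SNHG7, SNHG8, SNHG12, SNHG15 and SNHG16) are noncoding host genes of small nucleolar RNAs (snoRNAs). They were selected by symbol, and all 10 were among the 14456 genes of the table. PolyA-selected RNA was sequenced from C4-2, a castration-resistant prostate cancer line derived from LNCaP cells and maintained here in RPMI with 10% serum. One group of 3 libraries came from cells given IPI-9119, an inhibitor of fatty acid synthase (FASN), at 100 nM over 6 days, and the other group of 3 from cells given the solvent DMSO at 0.1% over the same period. Both groups are the same line with no engineered allele. Nothing in the labels tells if the replicates are independent cultures; p-values therefore measure only the spread between libraries, and that spread may be technical.

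A snoRNA host gene is transcribed as a long precursor whose introns contain snoRNAs. The spliced introns are debranched and trimmed to release the snoRNAs, which guide 2′-O-methylation (C/D box, SNORD) or pseudouridylation (H/ACA box, SNORA) of ribosomal and other RNAs. The spliced exons of many noncoding hosts begin with a 5′ terminal oligopyrimidine (TOP) tract, the same kind of start as ribosomal protein mRNAs, are bound by ribosomes over short open reading frames, and are degraded by nonsense-mediated decay. GAS5, growth arrest-specific 5, was named for its accumulation in growth-arrested cells. PolyA libraries measure the spliced host RNA; the snoRNAs were not analysed here.

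The first 60 bases of annotated transcripts are shown for 4 hosts that begin alike, 3 that fell after IPI-9119 (GAS5, SNHG5, SNHG8) and 1 that rose (SNHG16). Some annotated transcripts of SNHG3 and SNHG6, which rose too, also start with C and at least 4 further pyrimidines but are not shown. Capitals mark the opening pyrimidine run, read 5′ to 3′ from GENCODE 29.
GAS5-219: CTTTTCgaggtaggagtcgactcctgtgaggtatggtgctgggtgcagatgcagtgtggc
SNHG5-202: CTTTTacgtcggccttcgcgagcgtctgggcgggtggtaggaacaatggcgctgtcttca
SNHG8-205: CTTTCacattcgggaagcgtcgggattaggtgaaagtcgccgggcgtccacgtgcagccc
SNHG16-204: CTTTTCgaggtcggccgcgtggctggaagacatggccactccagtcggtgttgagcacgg
The GAS5 and SNHG16 transcripts share their first 11 letters, CTTTTCGAGGT. Of 206694 annotated transcripts 8 began with these letters, and they belonged to 2 genes, GAS5 and SNHG16. A start with C and at least 4 further pyrimidines was annotated for 6 of 29 GAS5 transcripts, 3 of 23 for SNHG5, 1 of 5 for SNHG8, 3 of 5 for SNHG6, 1 of 3 for SNHG3, 2 of 8 for SNHG16, 4 of 17 for SNHG12, 1 of 25 for SNHG1, 0 of 4 for SNHG7 and 0 of 10 for SNHG15. Over all annotated transcripts the share was 2.41%.

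Windows from 250 bases before to 50 bases after the RefSeq gene start (GRCh38.p14) were found for 8 of the 10 genes, all but SNHG6 and SNHG15. SNHG5, which fell, and SNHG16, which rose, are shown with the first 5 transcribed bases in capitals.
SNHG5 (chr6:85678684-85678983, minus strand): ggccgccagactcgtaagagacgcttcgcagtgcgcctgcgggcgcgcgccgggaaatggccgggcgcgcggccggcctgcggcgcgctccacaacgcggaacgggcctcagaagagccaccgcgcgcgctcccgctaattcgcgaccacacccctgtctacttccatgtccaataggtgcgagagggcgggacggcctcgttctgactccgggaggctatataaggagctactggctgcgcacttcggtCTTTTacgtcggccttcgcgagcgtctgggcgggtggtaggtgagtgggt
SNHG16 (chr17:76557514-76557813, plus strand): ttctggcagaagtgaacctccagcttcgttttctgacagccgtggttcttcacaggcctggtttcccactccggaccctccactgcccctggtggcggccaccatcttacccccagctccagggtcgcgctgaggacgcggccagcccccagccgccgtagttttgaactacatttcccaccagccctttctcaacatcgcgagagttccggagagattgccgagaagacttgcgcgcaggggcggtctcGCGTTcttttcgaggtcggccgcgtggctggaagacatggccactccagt
In SNHG16 the RefSeq start lies upstream of the pyrimidine run that opens SNHG16-204. The GENCODE gene starts of GAS5 and SNHG12 lay 163 and 1259 nt from their RefSeq starts, outside these windows. The start tract stood at the RefSeq start of 2 of the 8 windows (SNHG5 and SNHG12), against 4.07% of 35116 windows. CACGTG, the E-box letters bound by MYC and related factors, was in 1 of the 8 (SNHG7), against 7.26% of all windows. The letters TGATGNAA, an element of genes regulated by ATF4, were in 0 of the 8 against 3.62%, and TCACNCCAC, a sterol response element, in 0 of the 8 against 1.13%. Both strands were searched for these 3 motifs, each counted on its own.

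The IPI-9119 libraries were all shallower than the DMSO libraries, with 19090749 to 20422882 against 21952620 to 23448035 recovered reads. All 9 prostate luminal markers examined were present, with summed normalised counts of 254776 to 265298 under DMSO and 148189 to 153192 under IPI-9119. Among these markers 8 fell and 1 rose, beside 31.4% of all genes tested called lower and 31.3% called higher. Of the markers of other cell types, 0 of 5 for leukocytes, 2 of 4 for endothelium (summed counts 64.2 to 64.4 under DMSO and 47.4 to 75.3 under IPI-9119) and 3 of 6 for fibroblasts and smooth muscle (80.2 to 106 under DMSO and 108 to 132 under IPI-9119) were among the genes analysed. Of these 5, ACTA2, named after its values were seen, was called higher, with means of 5.19 ± 4.34 and 16.2 ± 2.47 normalised counts (SD, n = 3; limma, adjusted p = 0.0098). The part of these markers and of depth in the results on the hosts was not tested. FASN itself had 14743 ± 1415 normalised counts (SD, n = 3) with DMSO and 12053 ± 2331 with IPI-9119, a log2 fold change of -0.31 that did not pass the test (limma, adjusted p = 0.112). The FASN call depended on the setting: it was lower without IPI-9119 replicate 3 (-0.40; limma, adjusted p = 0.0225) and higher after correction for transcript length and GC content (0.84; limma, adjusted p = 2.1e-08). The values are relative to each library, so in these bulk samples fewer cells and less RNA per cell cannot be told apart.

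The 10 host genes moved in opposite directions after IPI-9119. GAS5, SNHG5 and SNHG8 fell, SNHG3, SNHG6 and SNHG16 rose, and SNHG1, SNHG7, SNHG12 and SNHG15 did not pass the test (limma on log2 of the normalised count plus 1, Benjamini-Hochberg adjusted p under 0.05 over all genes tested). The 6 calls stand against 62.8% of all 14437 genes tested, with 31.3% higher and 31.4% lower, so the share of hosts called was near that of all genes. The median log2 fold change was -0.10 over the 10 hosts and 0.0017 over all genes tested. In 6 hosts, 3 higher and 3 lower, no treated library overlapped a control library, which was so for 67.9% of all genes (34.0% higher and 33.9% lower). On recovered reads 3 hosts were called higher and 3 lower by edgeR, which called 62.9% of all genes (31.0% higher, 31.9% lower), and likewise 3 and 3 by DESeq2, which called 58.6% (29.4% higher, 29.2% lower).

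GAS5 (ENSG00000234741; chromosome 1, 173863900 to 173868882, minus strand, GRCh38) is the most abundant of the hosts by count. Its normalised counts were 8959, 8141 and 8767 with DMSO and 5611, 4700.0 and 4564 with IPI-9119. Every treated library lay below every control library, and IPI-9119 replicate 1 was the highest of the treated ones. The mean fell by 42.5%, from 8622 ± 428 to 4958 ± 569 (SD, n = 3), or -0.80 as a log2 fold change with SE 0.071 (limma, adjusted p = 5.8e-07). Between 4150 and 10023 reads per library stood behind these values.

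SNHG5 (ENSG00000203875; chromosome 6, 85660950 to 85678748, minus strand), host of the SNORD50 pair, had 602, 576 and 636 normalised counts with DMSO and 449, 339 and 418 with IPI-9119. The groups did not overlap, and the treated libraries were more spread than the controls. Its mean went from 605 ± 30.6 to 402 ± 56.6 (SD, n = 3), or -0.60 as a log2 fold change with SE 0.10 (limma, adjusted p = 0.00014).

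SNHG8 (ENSG00000269893; chromosome 4, 118278709 to 118279823, plus strand), host of SNORA24, had 2393, 2167 and 2184 normalised counts with DMSO and 2062, 1819 and 1921 with IPI-9119. The highest treated library came close to the lowest control library without reaching it. The fall was smaller than in GAS5 and SNHG5, from 2248 ± 126 to 1934 ± 122 (SD, n = 3), or -0.22 as a log2 fold change with SE 0.061 (limma, adjusted p = 0.0064).

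SNHG6 (ENSG00000245910; chromosome 8, 66921684 to 66926398, minus strand), host of SNORD87, had 905, 791 and 839 normalised counts with DMSO and 1540.2, 1339 and 1283 with IPI-9119. All treated libraries were above all controls, and IPI-9119 replicate 1 was again the highest. The mean rose from 845 ± 57.2 to 1388 ± 135 (SD, n = 3), or 0.71 as a log2 fold change with SE 0.077 (limma, adjusted p = 2.0e-06).

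SNHG3 (ENSG00000242125; chromosome 1, 28505980 to 28510892, plus strand) carries SNORA73A and SNORA73B, unusual H/ACA RNAs also known as U17 that act in pre-rRNA cleavage. Its normalised counts were 2262, 2251 and 2228 with DMSO and 3603, 3487 and 3253 with IPI-9119. The control libraries lay close together and well below the treated ones. The mean rose from 2247 ± 17.4 to 3448 ± 178 (SD, n = 3), or 0.62 as a log2 fold change with SE 0.051 (limma, adjusted p = 1.4e-07).

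SNHG16 (ENSG00000163597; chromosome 17, 76557766 to 76565348, plus strand), host of SNORD1A, SNORD1B and SNORD1C, had 1464, 1502 and 1367 normalised counts with DMSO and 1810.1, 1849.9 and 1639 with IPI-9119. The lowest treated library exceeded the highest control library. The mean rose from 1444 ± 69.9 to 1766 ± 112 (SD, n = 3), or 0.29 as a log2 fold change with SE 0.062 (limma, adjusted p = 0.0010). SNHG16 changed in the opposite direction to GAS5. Some annotated transcripts of both genes share the start shown above, but which transcripts these cells used was not tested.

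**Figure D1:**
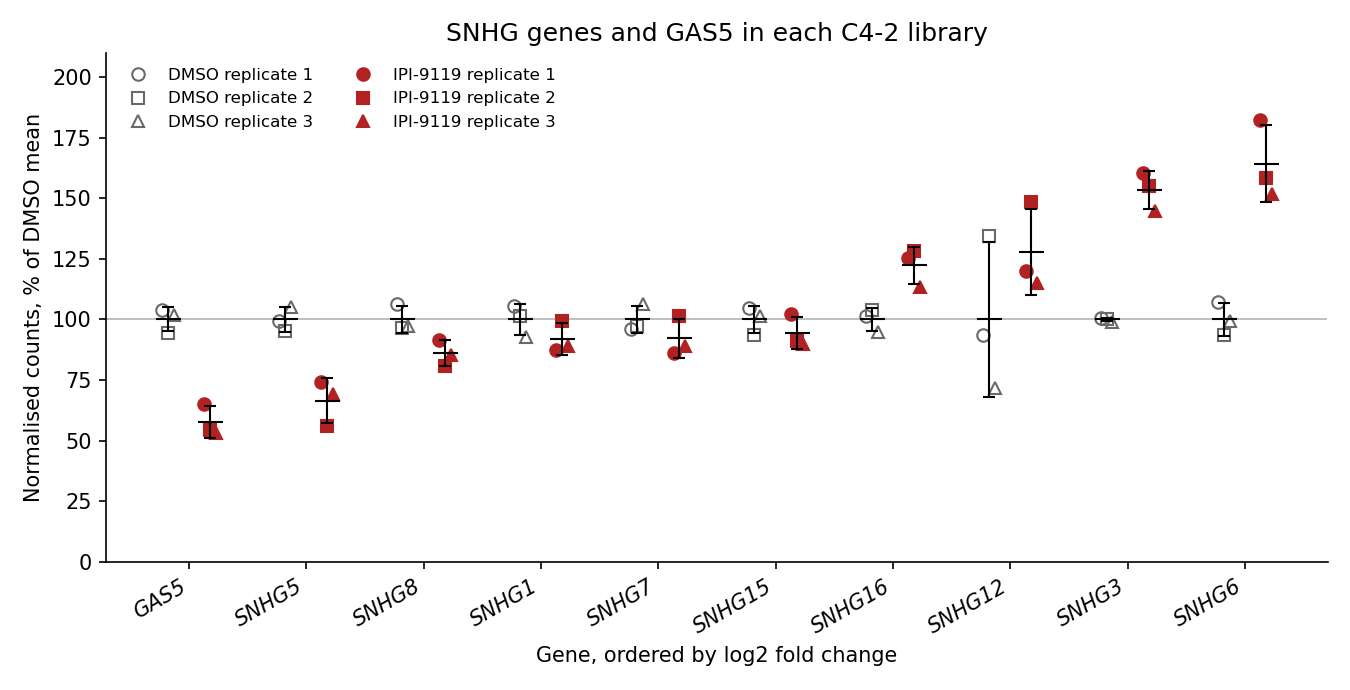
Normalised counts of the 10 host genes in each of the 3 DMSO libraries (open, grey) and 3 IPI-9119 libraries (filled, red), as a percent of the gene's DMSO mean, with group mean and SD; genes are ordered by log2 fold change and marker shapes give the replicate. GAS5, SNHG5 and SNHG8 lie wholly below their controls, and SNHG16, SNHG3 and SNHG6 wholly above them.

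The other 4 hosts had overlapping groups. SNHG1 (ENSG00000255717; chromosome 11, 62851988 to 62855914, minus strand), host of a cluster of 8 SNORD genes, had 392, 376 and 344 normalised counts with DMSO and 325, 369 and 330 with IPI-9119. The log2 fold change was -0.12, with a 95% interval of -0.32 to 0.08 (limma, adjusted p = 0.274). SNHG7 (ENSG00000233016; chromosome 9, 136721366 to 136728184, minus strand), host of SNORA17A and SNORA17B, had 105, 106 and 116 normalised counts with DMSO and 93.8, 110.2 and 96.8 with IPI-9119. Its log2 fold change of -0.12 had a 95% interval of -0.42 to 0.19 (limma, adjusted p = 0.497).

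SNHG15 (ENSG00000232956; chromosome 7, 44983023 to 44986961, minus strand), host of SNORA9, had 206, 185 and 200.2 normalised counts with DMSO and 201, 180.0 and 177 with IPI-9119. The log2 fold change was -0.08, with a 95% interval of -0.33 to 0.16 (limma, adjusted p = 0.539), and it was 0.03 under quantile scaling. SNHG12 (ENSG00000197989; chromosome 1, 28578538 to 28583132, minus strand), host of SNORD99 and 3 SNORA genes, was the least abundant, at 42.01, 60.4 and 32.1 normalised counts with DMSO and 53.8, 66.5 and 51.7 with IPI-9119. DMSO replicate 2 lay above 2 of the 3 treated libraries. The log2 fold change of 0.39 had a 95% interval of -0.13 to 0.90 (limma, adjusted p = 0.177), and without DMSO replicate 2 it was 0.62 (limma, adjusted p = 0.0413). These intervals leave room for changes of the size seen in SNHG8 in all 4 genes, in 1 direction or the other.

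GAS5 made up the largest share of the group's counts under both treatments, and a smaller one with IPI-9119. The summed normalised counts of the 10 hosts were 16733 ± 587 (SD, n = 3) with DMSO and 14581 ± 1045 with IPI-9119. Without GAS5 the sum was 8111 ± 228 with DMSO and 9623 ± 487 with IPI-9119, thus higher in the treated group. GAS5 made up 51.7%, 50.4% and 52.5% of the sum with DMSO and 35.6%, 33.0% and 33.2% of it with IPI-9119. These sums are descriptions and were not tested. Together the hosts took 0.0800% ± 0.0024 of recovered reads with DMSO and 0.0688% ± 0.0040 with IPI-9119.

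Counts were divided by transcript length in kilobases to compare levels between genes, using the median length of each gene's annotated transcripts. On that scale the DMSO levels ran from GAS5 (12533 ± 622 per kb) over SNHG8 (4783), SNHG6 (1508 ± 102), SNHG3 (1021 ± 7.91), SNHG16 (1020), SNHG5 (900 ± 45.5), SNHG1 (496 ± 32.7) and SNHG15 (234) to SNHG7 (73.8) and SNHG12 (41.1) (SD, n = 3). SNHG3 and SNHG16 did not differ beyond their spread. With IPI-9119 the order was the same, but the levels of GAS5 (7207 ± 827 per kb) and SNHG8 (4115) stood closer together and SNHG3 (1567 ± 81.0) stood above SNHG16 (1248). GAS5 has 29 annotated transcripts of 242 to 1698 bases, 19 of them with a retained intron, so the length matters: with all exons merged (3631 bases) its DMSO level was 2375 ± 118 per kb, and SNHG8, at 2436 per kb, overlapped it.

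**Figure D2:**
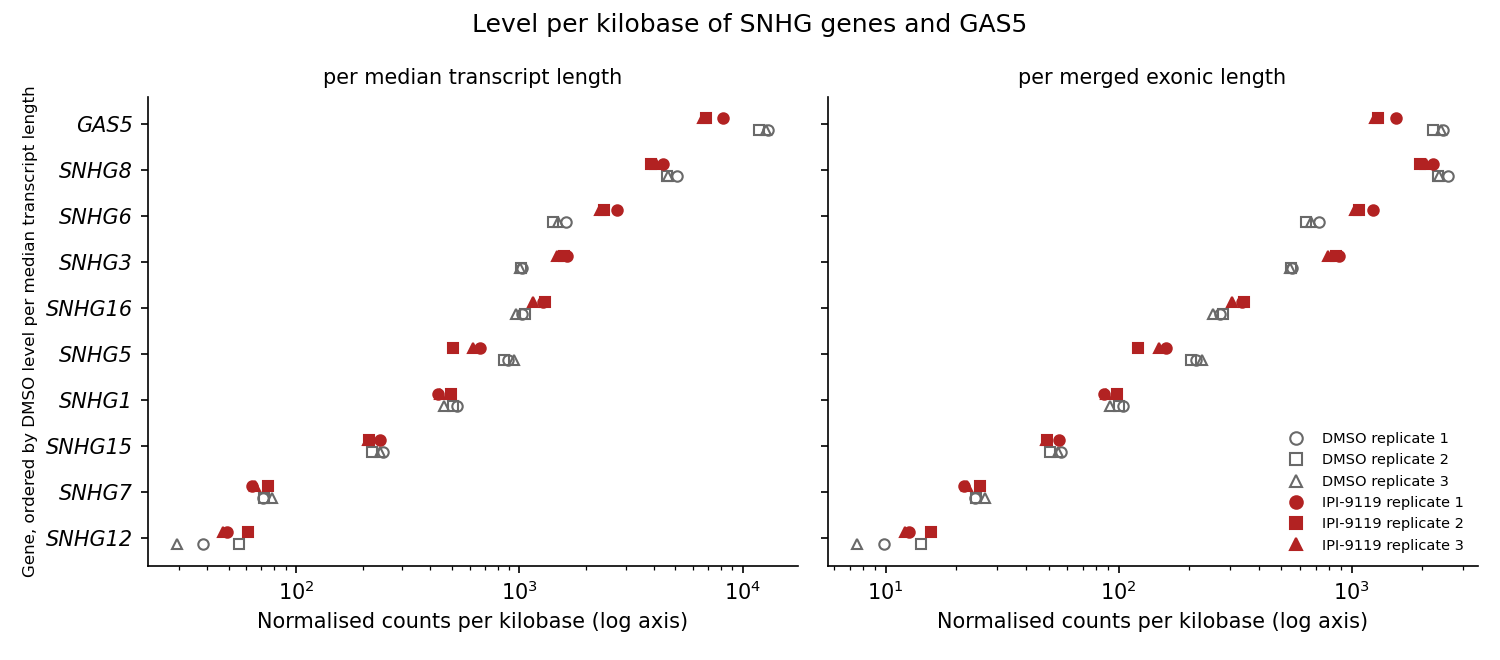
Normalised counts per kilobase (log axis) of the 10 host genes in single DMSO (grey) and IPI-9119 (red) libraries, per median transcript length on the left and per merged exonic length on the right. GAS5 stands above SNHG8 on the left (12533 and 4783 per kb with DMSO) and overlaps it on the right (2375 and 2436 per kb).

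The direction of change did not follow the class of snoRNA a host carries. Of the hosts with SNORD genes, GAS5 (10 SNORD and 1 SNORA in RefSeq) and SNHG5 (2 SNORD) fell, while SNHG6 (1 SNORD) and SNHG16 (3 SNORD) rose. SNHG1 (8 SNORD) and SNHG12 (1 SNORD and 3 SNORA) did not pass. Of those with SNORA genes alone, SNHG8 (1) fell and SNHG3 (2) rose, and SNHG7 (2) and SNHG15 (1) did not pass. With so few genes in each class this is a description only.

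The hosts were also compared after removing, in each library, the trend of values with transcript length and GC content over all genes. GAS5 (-1.06), SNHG5 (-0.79) and SNHG8 (-0.34) then had larger falls on the log2 scale, and SNHG6 (0.48), SNHG3 (0.43) and SNHG16 (0.15) smaller rises, all of them called. SNHG1 was called lower at -0.36 (limma, adjusted p = 0.0022), and SNHG7 turned to 0.49 and was called higher (limma, adjusted p = 0.0072). The count became 4 higher and 4 lower, against 64.8% of all genes tested under that correction (30.7% higher and 34.1% lower). When the length of the longest transcript was used in place of the merged exons, SNHG16 was 0.13 and no longer called (limma, adjusted p = 0.0641), SNHG7 was 0.13 and not called, and SNHG1 stayed called at -0.36.

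**Figure D3:**
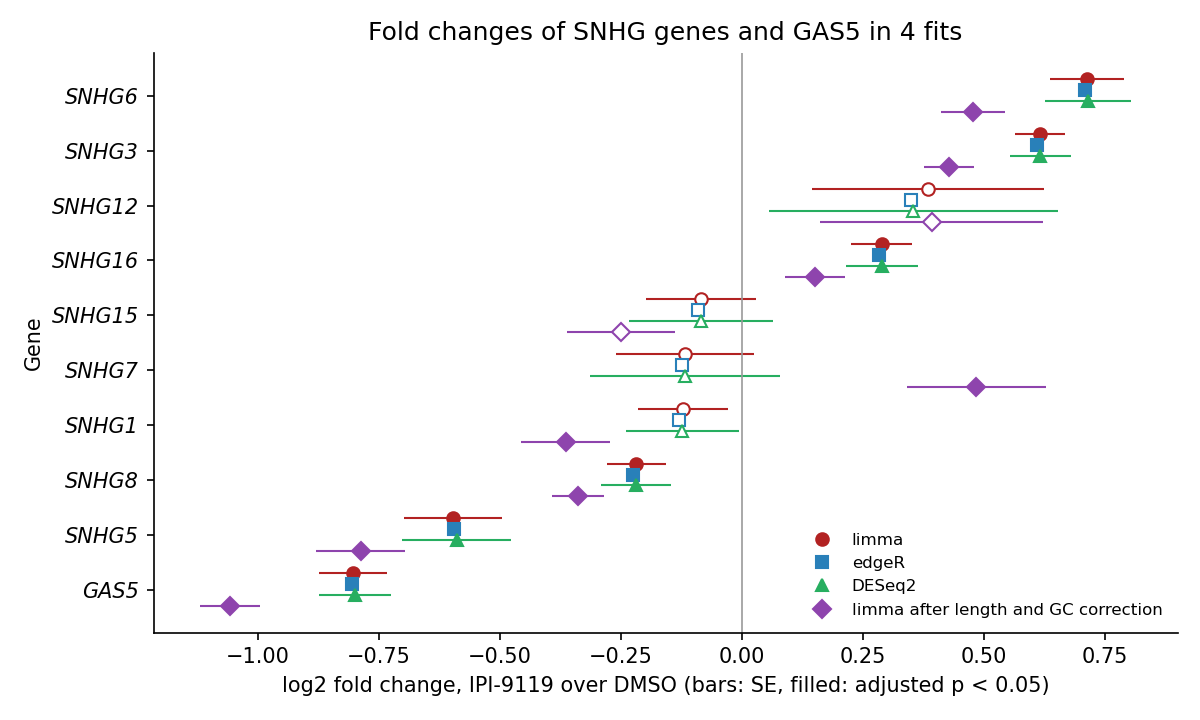
Log2 fold change of IPI-9119 over DMSO for the 10 host genes in 4 fits: limma, edgeR and DESeq2 on recovered reads, and limma after the length and GC correction (bars, SE, not drawn for edgeR; filled markers, adjusted p under 0.05). The first 3 fits lie close together, and the correction moves GAS5 from -0.80 to -1.06 and SNHG7 from -0.12 to 0.49.

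GAS5, SNHG3, SNHG5, SNHG6 and SNHG8 were called in the same direction under all 18 alternative settings, and SNHG16 under 17. SNHG1 was called under 2 of them and SNHG12 under 1, both in the direction of their main value, SNHG7 under 1 in the opposite direction, and SNHG15 under 0. IPI-9119 replicate 1 was the highest of the 3 treated libraries for 6 of the 10 hosts, for 13 of 16 other noncoding hosts and for 30 of 37 protein-coding hosts, against 36.6% of all genes tested. Without that library the log2 fold changes were -0.90 for GAS5, -0.68 for SNHG5, -0.26 for SNHG8, 0.64 for SNHG6, 0.58 for SNHG3 and 0.27 for SNHG16, and all 6 stayed called.

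Several hosts share exonic sequence or a start region with another gene, and the strand setting of the counting is not given in the sources used here. SNHG3 lies on the same strand as RCC1, the exchange factor of the GTPase Ran, and 242 nt of its merged exons (5.92%) also belong to RCC1. RCC1 itself rose by 0.42 on the log2 scale, with means of 1036 ± 51.0 and 1383 ± 36.4 normalised counts (SD, n = 3) (limma, adjusted p = 3.3e-05), so the counts of the pair are uncertain where they overlap. SNHG6 shares 365 nt (29.3%) with MCMDC2 on the opposite strand, which rose by 0.34 on the log2 scale, from 364 ± 43.4 to 461 ± 22.7 (limma, adjusted p = 0.0070). The MCMDC2 call was lost after the length and GC correction, at 0.17 (limma, adjusted p = 0.127).

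SNHG7 shares 1094 nt (25.2%) with DIPK1B on the opposite strand, which rose by 0.59 on the log2 scale, with means of 238 ± 23.1 and 358 ± 18.9 normalised counts (SD, n = 3) (limma, adjusted p = 0.00018). SNHG16 shares 1639 nt (30.6%) with an opposite-strand gene that is not analysed here, ENSG00000284526. SNHG12 shares 8 nt with TRNAU1AP, a selenocysteine tRNA-associated protein gene, whose log2 fold change of 0.18 did not pass the test (limma, adjusted p = 0.0588). That value passed with 3 alternatives, leaving out IPI-9119 replicate 3 among them, at 0.24 (limma, adjusted p = 0.0213).

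GAS5 and SNHG1 each have a protein-coding neighbour on the opposite strand with which they share no exonic sequence. The annotated spans of GAS5 and its neighbour ZBTB37 overlap, while those of SNHG1 and SLC3A2 do not. GAS5 also shares 42 nt (1.16%) with GAS5-AS1 on the opposite strand, which is not among the genes analysed. ZBTB37, a zinc-finger gene whose start lies 800 nt from that of GAS5, fell with it by 0.44 on the log2 scale, with means of 701 ± 69.6 and 522 ± 103 normalised counts (SD, n = 3; limma, adjusted p = 0.0143). Without DMSO replicate 2 the ZBTB37 value was -0.39 and the call was lost (limma, adjusted p = 0.0563). The ZBTB37 call was also lost with no variance trend and no robust moderation (limma, adjusted p = 0.0672). SLC3A2, the heavy chain of cystine and large neutral amino acid transporters, starts 188 nt from SNHG1 and had a log2 fold change of 0.05 (limma, adjusted p = 0.340). With length and GC removed it was 0.22 and passed (limma, adjusted p = 0.00099), while SNHG1 was lower.

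The genes whose pattern over the 6 libraries was most like that of GAS5, by Pearson's r of log2 values among 10348 other genes with a mean of at least 100, were HES6, FAAH and PSPH. Their r was 0.9988, 0.9987 and 0.9982, values that rest mainly on the difference between the groups. HES6, a transcriptional regulator of the HES family, had 6923, 6495 and 6867 normalised counts with DMSO and 5249, 4648 and 4484 with IPI-9119, a log2 fold change of -0.50. FAAH, which hydrolyses fatty acid amides, changed by -0.52, and PSPH, which catalyses the last step of serine synthesis, by -0.43. These 3 genes were picked by r over the same 6 libraries. That IPI-9119 replicate 1 was their highest treated library, as in GAS5, is therefore no separate result.

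Other noncoding snoRNA hosts also went both ways. Of 21 listed, 16 were tested: 8 rose, 5 fell and 3 did not pass, with a median log2 fold change of 0.24, beside 31.3% of all genes tested called higher, 31.4% called lower and a median of 0.0017. The counts of the lists that follow stand against the same shares. SNHG4 rose by 1.04 on the log2 scale, with means of 109.5 ± 19.0 and 225 ± 30.03 normalised counts (SD, n = 3), and SNHG25 by 0.83, with means of 185 ± 21.3 and 329 ± 32.6. SNHG9 (0.54), SNHG10 (0.52), SNHG19 (0.51), SNHG30 (0.48), SNHG14 (0.32) and DANCR (0.17) rose as well, although the DANCR call was lost after the length and GC correction (0.03) and without DMSO replicate 2 (0.14). The DANCR call was also lost with no variance trend and no robust moderation (limma, adjusted p = 0.103).

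EPB41L4A-AS1, a host of SNORA13, had 682, 669 and 656 normalised counts with DMSO and 424, 312 and 307 with IPI-9119, a log2 fold change of -0.96 (limma, adjusted p = 3.9e-06). ZFAS1, a host of SNORD12 genes, had 4870.4, 4482 and 4923 with DMSO and 3246, 2763 and 2921 with IPI-9119, a log2 fold change of -0.68 (limma, adjusted p = 3.5e-07). Both were separated between the groups, as GAS5 was. SNHG32 (-0.41), SNHG20 (-0.53) and SNHG11 (-0.59) fell too. The SNHG11 call was lost without DMSO replicate 3 (-0.41) and without IPI-9119 replicate 2 (-0.48). It was also lost with no variance trend and no robust moderation (limma, adjusted p = 0.0559). SNHG29, the most abundant of these hosts by count, had a log2 fold change of -0.10 that did not pass. It passed under 5 alternatives, among them leaving out IPI-9119 replicate 1 (-0.15), quantile scaling (-0.11) and the length and GC correction (-0.29). SNHG17 (0.05) and SNHG21 (0.30) did not pass.

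Of 37 protein-coding snoRNA hosts, 16 rose, 8 fell and 13 did not pass, with a median of 0.11, against 31.3% higher and 31.4% lower over all genes. After the length and GC correction 11 were higher and 11 lower, against 30.7% of all genes higher and 34.1% lower. NCL, which encodes nucleolin, fell by 1.35 on the log2 scale, with means of 18753 ± 1444 and 7349 ± 396 normalised counts (SD, n = 3). EEF2, translation elongation factor 2, fell by 0.78 on the log2 scale, and EIF4A2, a translation initiation helicase, rose by 1.09.

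The proteins that build snoRNPs were also split. Of 8 core proteins, 4 rose and 3 fell, with a median of 0.14, where 31.3% of all genes rose and 31.4% fell. NOP56 of the C/D particle fell by 0.77 on the log2 scale, with means of 2850.4 ± 62.0 and 1670.4 ± 91.0 normalised counts (SD, n = 3), and GAR1 of the H/ACA particle fell by 0.84. NHP2, another H/ACA protein, rose by 0.50. Of 11 assembly factors, 6 fell, 0 rose and 5 did not pass (limma; 1 rose under quantile scaling), with a median of -0.27, against 31.4% of all genes lower; ZNHIT6 (-1.19), NOLC1 (-0.73) and RUVBL1 (-0.38) were among those that fell. Of 6 debranching and trimming enzymes, 4 fell and 2 did not pass, with a median of -0.27, again against 31.4% lower. Those that fell included the exosome nucleases EXOSC10 (-0.68) and DIS3 (-0.44) and the deadenylase PARN (-0.33). Without IPI-9119 replicate 1, 1 of these enzymes was called higher, beside 4442 of all genes tested.

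Nonsense-mediated decay factors mostly fell: 15 of 21 fell, 2 rose and 4 did not pass, with a median of -0.25, against 31.4% of all genes lower and 31.3% higher. UPF1, the helicase at the centre of the pathway, had 1333, 1594 and 1415 normalised counts with DMSO and 473, 529 and 515 with IPI-9119, a log2 fold change of -1.51 (limma, adjusted p = 1.0e-09). UPF2 (-1.53) and the endonuclease SMG6 (-1.55) fell by similar amounts, and MAGOHB, of the exon junction complex, rose by 0.51. These are long genes, with a median merged exonic length of 5772 bases against 4616 over all genes tested. After the length and GC correction 14 were lower and 2 higher, against 34.1% of all genes lower and 30.7% higher, and the median was -0.42. UPF1 (-0.74) and SMG6 (-0.94) then had smaller falls and UPF2 (-1.70) a larger one.

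The listed TOP mRNAs, mainly but not only of translation factors, showed no common direction. Of 15, 3 were higher and 3 lower, with a median of 0.0011, where 31.3% of all genes were higher and 31.4% lower. PABPC1, the cytoplasmic poly(A)-binding protein, fell by 1.05 on the log2 scale and HNRNPA1 rose by 0.35. The count is sensitive to the scaling: 7 were lower under quantile scaling, 7 after the length and GC correction and 5 without IPI-9119 replicate 1. Of 8 regulators of TOP mRNA translation, 5 fell, 1 rose and 2 did not pass, with a median of -0.48, against the same shares of all genes. LARP1, which binds the TOP tract, fell by 1.96 on the log2 scale, with means of 4514 ± 660 and 1169 ± 235 normalised counts (SD, n = 3). RPTOR (-1.49), MTOR (-1.51) and EIF4EBP1 (-0.58) fell, and EIF4EBP2 rose by 0.50. After the length and GC correction RPTOR was at -0.63 and MTOR at -0.99.

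**Figure D4:**
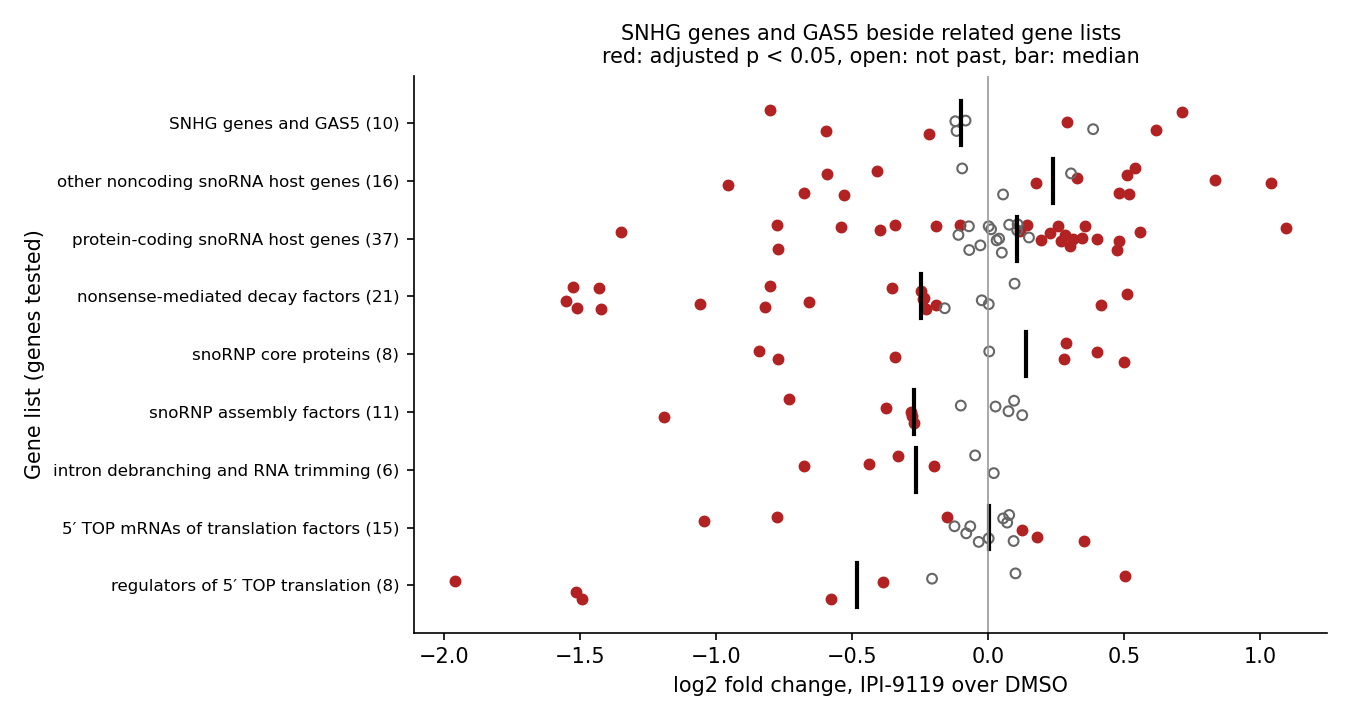
Log2 fold change of IPI-9119 over DMSO for each tested gene of the 10 hosts and of the 8 related lists, one row per list (red, adjusted p under 0.05; open, not past; black bar, median). The hosts spread on both sides of 0 (median -0.10), while 15 of 21 nonsense-mediated decay factors and 6 of 11 assembly factors were called lower, as were 31.4% of all genes tested.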

How the data were processed

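The deposited signal consists of read counts per gene that the authors scaled by 1 factor per library, which the spacing of the values shows. Per the submitters' processing notes, the tools were STAR 2.5.2b, Trimmomatic 0.36, DESeq2, Subread 1.5.2 and featureCounts and the build GRCh38, with neither role nor order given. The annotation and strand setting are not given in the sources used here. Read counts were recovered from the steps of low values, of which 100% came out whole within 0.01 read; the value of 1 read was 0.894 to 1.10. No replicate duplicated another: chi-square per degree of freedom was 2.31 to 9.76 between libraries of a group.

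Genes with a mean of at least 10 were tested (19 removed), two-sided, on log2(value + 1) by limma 3.58.1 (R 4.3.3; variance trend, robust moderation); this scale understates changes of low genes. Count tests on recovered reads with edgeR 4.0.16 and DESeq2 1.42.0 called 9081 and 8460 genes, against 9061 with limma. Exons and lengths came from GENCODE 29 (14409 of 14456 genes matched), windows and hosted snoRNAs from RefSeq. Symbols came from a separate list of gene names, with the GENCODE name where that list had none. The length and GC correction removed from every library's deviations from the gene means a smooth function of both properties (splines with 4 degrees of freedom and their interaction). On simulated counts for IPI-9119 against DMSO (14335 genes), limma called 97 of 100 genes at 2-fold, 85 of 100 at 1.5-fold and 9 unchanged ones. Far fewer genes were changed there than were called in these data. The changes were balanced in direction and spared genes of low count, so these rates may not carry over.

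The 10 genes and the 8 related lists were chosen with earlier results of these data known, so no list was tested. Named were the 10 hosts, FASN, tested neighbours within 5000 nt or overlapping, the 3 genes most like GAS5, and of each list the 3 genes with the smallest p, plus the largest change the other way where those 3 agreed in direction and the list did not. The remaining noncoding hosts, LARP1 and MTOR were added after their values were seen. Alternatives were a replicate block, other pseudocounts, filters and scalings, the count tests, the length and GC correction, and leaving out each library. A further limma fit used no variance trend and no robust moderation.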

Additional observations from a re-analysis of the deposited data

How the results depend on the processing

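The counts of hosts called stayed within 1.5 times of 3 higher and 3 lower under every alternative run, at 2 to 4 higher (2 with the longest-transcript correction) and 3 to 4 lower. The counts that moved further belonged to related lists. Protein-coding hosts had 13 lower under quantile scaling and, with the longest-transcript correction that was chosen after seeing the data, 10 higher and 14 lower. That correction also gave 4 decay factors higher, 8 listed TOP mRNAs lower and 2 TOP regulators higher (2 also with merged exons). Assembly factors had 1 higher with the replicate block and 1 with quantile scaling. The listed TOP mRNAs had 1 higher with no trend and no robust moderation, and 5 lower with the block, 7 with quantile scaling and 7 with the length and GC correction. Leaving out each library gave 2 to 5 of them lower, and 0 to 1 debranching and trimming enzymes higher. Beside these counts, leaving out each library called 4148 to 4442 of all genes higher and 4022 to 4456 lower. With the length and GC correction 30.7% of all genes were higher and 34.1% lower. Against the main 4522 higher and 4539 lower, quantile scaling called more genes higher and fewer lower. The longest-transcript correction called fewer higher and more lower. The fit with no trend and no robust moderation called fewer in both directions. Signs turned, among others, for SNHG7 (0.49) and FASN (0.84) with the length and GC correction, both then called higher. With its longest-transcript form they turned for FASN (1.40, called higher) and, without a call, for SNHG7 (0.13) and DANCR (-0.0033). They also turned, without a call, for SNHG15 under quantile scaling (0.03) and for SNHG17 on leaving out single libraries (-0.11 to 0.21). The cause was not tested. Deviations from the group means had r = 0.43, 0.26 and -0.03 between same-numbered libraries, and -0.44 to 0.34 between differently numbered ones. With 3 libraries per group these values depend on each other, so they cannot settle whether the numbers pair the libraries. The replicate block called 4797 genes higher and 4799 lower, against 4522 and 4539 without it. With the block FASN (-0.31, limma, adjusted p = 2.7e-05), SNHG29 (-0.10, 0.031) and TRNAU1AP (0.18, 0.036) were called. SNHG12 and SNHG7 had the fewest reads and the widest intervals of the 10.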
